A study of Mus musculus with 4 samples.

Results

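The immediate early transcription factors Fos, Fosb, Jun, Junb, Jund, Egr1, Atf3, Ier2, Nr4a1 and Nr4a2 are 10 genes, chosen by name, of the 31053 features counted in single immune cells of mouse lung. Their levels are described in 7 lineages and 4 libraries, over cells with at least 200 detected genes and at most 10% mitochondrial UMIs (unique molecular identifiers, each standing for 1 captured RNA molecule). The 4 groups were lung tumor of Rab37 KO mice, lung tumor of WT mice, normal lung of Rab37 KO mice and normal lung of WT mice, all on a C57BL/6 background. Tumor mice had received LLC cells, a line made from a lung carcinoma of the mouse, and normal lungs came from mice given Matrigel, a basement membrane extract, without tumor cells. All tissue was taken at day 14. Rab37 is a small GTPase of vesicle traffic, and the KO mice lack it; the labels used here do not say in which cells or by which allele. Live CD45+ cells, the leukocytes, were sorted and sequenced with droplet 3′ libraries. With 1 library in each group there were no replicates, so differences are given with counting error and without a test. The labels do not give the number of mice per library.

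Immediate early genes are transcribed within minutes of a signal without new protein synthesis, because the kinases and factors that switch them on are already in the cell. Fos and Jun proteins pair through leucine zippers to form AP-1, which binds the promoters and enhancers of cytokine, protease and cell cycle genes in leukocytes. Egr1 is a zinc finger factor induced through the serum response factor and ERK signalling, Atf3 is a stress-induced bZIP factor of the ATF and CREB family, and Nr4a1 and Nr4a2 are orphan nuclear receptors induced by antigen receptor signals in lymphocytes and by inflammatory signals in macrophages. Enzymatic digestion of tissue is known to induce the same genes, together with heat shock genes, in cells while they are being isolated.

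The deposited matrices held 3065 barcodes for tumor Rab37 KO, 674 for tumor WT, 5063 for normal Rab37 KO and 5594 for normal WT, and 13344 of all 14396 passed the filters. Median depth lay between 3999 and 6566 UMIs per cell, and pairs of libraries shared at most 6 barcodes. Rab37 itself had 8 UMIs in tumor Rab37 KO and 25 in tumor WT, and 13 UMIs in normal Rab37 KO and 314 in normal WT. Cells with an X or Y expression call were almost all male in tumor Rab37 KO (1666 male and 33 female) and all female in tumor WT (420 female and 0 male), so genotype and sex cannot be told apart within tumor. Both normal libraries held female and male cells. Lineages were named from marker genes and end in "-like": 12056 cells fell into neutrophil-, monocyte/macrophage-, alveolar macrophage-, dendritic cell-, T-, NK- and B-like lineages, with 1311, 778, 256, 55, 82, 62 and 65 cells in tumor Rab37 KO. The same lineages held 206, 217, 23, 26, 56, 27 and 53 cells in tumor WT, 558, 372, 748, 158, 1394, 297 and 636 in normal Rab37 KO, and 378, 414, 1065, 211, 1547, 384 and 677 in normal WT. Every marker of these lineages was detected in its lineage in every library, except Fscn1, a marker of migratory dendritic cells, at 0 in tumor Rab37 KO. Neutrophil marker RNA was also found in other lineages: it took 2.21% of monocyte/macrophage-like UMIs in tumor Rab37 KO, 0.855% in tumor WT, 0.333% in normal Rab37 KO and 0.221% in normal WT, and in dendritic cell-like cells it was highest in tumor WT, at 0.772%, against 0.185% in tumor Rab37 KO. The mitochondrial share of UMIs was higher in tumor Rab37 KO than in tumor WT in every lineage, between 2.42% and 4.42% in tumor Rab37 KO and between 0.876% and 2.45% in tumor WT.

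Levels are in CPM, the UMIs of a gene scaled to the summed UMIs of a lineage in a library, so they are levels per UMI and not per cell. Since a 3′ library counts molecules at their ends, a level does not depend on gene length. Parentheses after a value hold its exact 95% interval, from the Poisson distribution for a level and the conditional binomial for a ratio, and cover counting error only. A pair of member and lineage was called measured when the compared libraries together had 20 or more of its UMIs, and higher or lower from 1.5-fold on. The share of all genes that passed the same rule is given beside each first count. The members, the further gene lists and Rab37 were left out of the clustering that defined the lineages.

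Promoter sequences, the 250 bases before the RefSeq start (GRCm38.p6), were read for 8 members. Of these 6 are shown because cAMP and calcium signals can induce immediate early genes through CREB family sites. Members also differ in how many cores of such sites they hold. Each is read 5′ to 3′ on the gene's strand, and capitals mark the core TGACG, or CGTCA on the other strand, and the EGR site GCGNGGGCG on either strand.
Fos: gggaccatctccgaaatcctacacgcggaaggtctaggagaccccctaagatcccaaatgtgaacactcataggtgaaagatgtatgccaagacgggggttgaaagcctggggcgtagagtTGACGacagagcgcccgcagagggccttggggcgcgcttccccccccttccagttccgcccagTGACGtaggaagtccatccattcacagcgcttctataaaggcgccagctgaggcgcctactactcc
Fosb: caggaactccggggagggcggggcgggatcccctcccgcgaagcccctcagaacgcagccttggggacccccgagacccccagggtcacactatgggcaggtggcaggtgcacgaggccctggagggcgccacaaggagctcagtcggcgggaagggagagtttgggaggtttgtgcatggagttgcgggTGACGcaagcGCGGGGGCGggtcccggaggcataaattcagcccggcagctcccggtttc
Jun: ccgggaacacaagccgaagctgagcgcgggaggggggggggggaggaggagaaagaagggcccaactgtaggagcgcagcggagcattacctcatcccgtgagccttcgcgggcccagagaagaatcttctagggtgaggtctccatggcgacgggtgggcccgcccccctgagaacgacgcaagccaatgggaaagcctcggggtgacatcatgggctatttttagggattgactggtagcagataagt
Junb: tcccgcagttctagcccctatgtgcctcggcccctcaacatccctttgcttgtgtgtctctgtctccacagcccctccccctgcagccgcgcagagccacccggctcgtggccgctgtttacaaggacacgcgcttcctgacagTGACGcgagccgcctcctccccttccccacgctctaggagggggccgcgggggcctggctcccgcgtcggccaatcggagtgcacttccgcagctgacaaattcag
Nr4a1: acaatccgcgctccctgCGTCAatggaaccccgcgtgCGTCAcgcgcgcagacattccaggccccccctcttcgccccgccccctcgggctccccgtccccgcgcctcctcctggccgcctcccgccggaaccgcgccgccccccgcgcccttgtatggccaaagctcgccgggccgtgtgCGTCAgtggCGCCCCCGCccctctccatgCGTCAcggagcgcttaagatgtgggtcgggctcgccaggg
Nr4a2: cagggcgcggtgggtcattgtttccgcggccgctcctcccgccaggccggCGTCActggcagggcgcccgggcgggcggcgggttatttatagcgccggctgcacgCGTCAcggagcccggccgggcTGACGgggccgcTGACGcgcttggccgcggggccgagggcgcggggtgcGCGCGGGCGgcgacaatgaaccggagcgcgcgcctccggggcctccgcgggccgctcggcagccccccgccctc
These windows are chr12:85473640-85473889, chr7:19310046-19310295, chr4:95052223-95052472, chr8:84978749-84978998, chr15:101266596-101266845 and chr2:57124004-57124253 in the order shown. Nr4a1 and Nr4a2 each held 4 cores and 1 EGR site, the binding sequence of Egr1's protein family. Fos held 2 cores, at 129 to 125 and 66 to 62 bases before its start. Fosb held 1 core and 1 EGR site, Junb held 1 core, and Jun held neither. Of the members not shown, Atf3 held 1 core, at 7 to 3 bases before its start, and Jund held neither. The RefSeq window of Jund, chr8:70697489-70697738, does not adjoin the annotated gene start given below, chr8:70698949. Those of Nr4a1 and of Atf3 (chr1:191183334-191183583) lie inside the annotated genes given below, at RefSeq starts downstream of the annotated gene starts. Bases next to the annotated starts of these genes were not searched. Of the 8 promoters, 6 contained the core, against 17.9% of all 27025 promoters of the same length. The EGR site was in 3 of 8, against 4.65% of all. The full cAMP response element TGACGTCA, which contains the core, the AP-1 site TGANTCA and the CArG box were in 0 of 8, and in 1.62%, 6.87% and 1.40% of all promoters. Near matches and bases farther upstream were not searched, and Egr1 and Ier2 were not among the 8. No core overlapped an EGR site in the windows shown. The motifs were chosen after the windows had been seen, and a match is a description and not a measured binding site.

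The genes lie on 8 chromosomes of the mm10 build. Fos (ENSMUSG00000021250, chr12:85473890-85477273, plus strand) and Fosb (ENSMUSG00000003545, chr7:19302696-19310051, minus strand) encode the Fos side of AP-1. Jun (ENSMUSG00000052684, chr4:95049034-95052222, minus strand), Junb (ENSMUSG00000052837, chr8:84974484-84978718, minus strand) and Jund (ENSMUSG00000071076, chr8:70698949-70700616, plus strand) encode the Jun side. Egr1 (ENSMUSG00000038418, chr18:34859823-34864984, plus strand), Atf3 (ENSMUSG00000026628, chr1:191170296-191218039, minus strand) and Ier2 (ENSMUSG00000053560, chr8:84661331-84662852, minus strand) follow, and Nr4a1 (ENSMUSG00000023034, chr15:101254269-101274795, plus strand) and Nr4a2 (ENSMUSG00000026826, chr2:57106830-57124003, minus strand) encode the nuclear receptors. On either strand Jun overlaps Junos, Junb overlaps Prdx2 and Jund overlaps Gm11175 in the annotation, and the sources used here do not say whether counting used the strand.

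Neutrophil-like cells carried the highest summed level of the 10 members in every library. Together the members took 16354 CPM in tumor Rab37 KO, 16757 CPM in tumor WT, 13514 CPM in normal Rab37 KO and 14561 CPM in normal WT in neutrophil-like cells. Monocyte/macrophage-like cells stood at 9402 CPM in tumor Rab37 KO, 6411 CPM in tumor WT, 10605 CPM in normal Rab37 KO and 9958 CPM in normal WT, so tumor WT was the low library there. In normal lung the order below these lineages was dendritic cell-, alveolar macrophage-, B-, NK- and T-like, and no neighbours' intervals overlapped in either normal library. In tumor the order changed: B-like cells had 9219 CPM in tumor Rab37 KO and 8492 CPM in tumor WT, against 5142 and 5562 CPM in normal Rab37 KO and normal WT. The B-like and monocyte/macrophage-like intervals overlapped in tumor Rab37 KO, as did those of alveolar macrophage- and dendritic cell-like cells there, and those of T-, monocyte/macrophage- and NK-like cells in tumor WT.

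**Figure D1:**
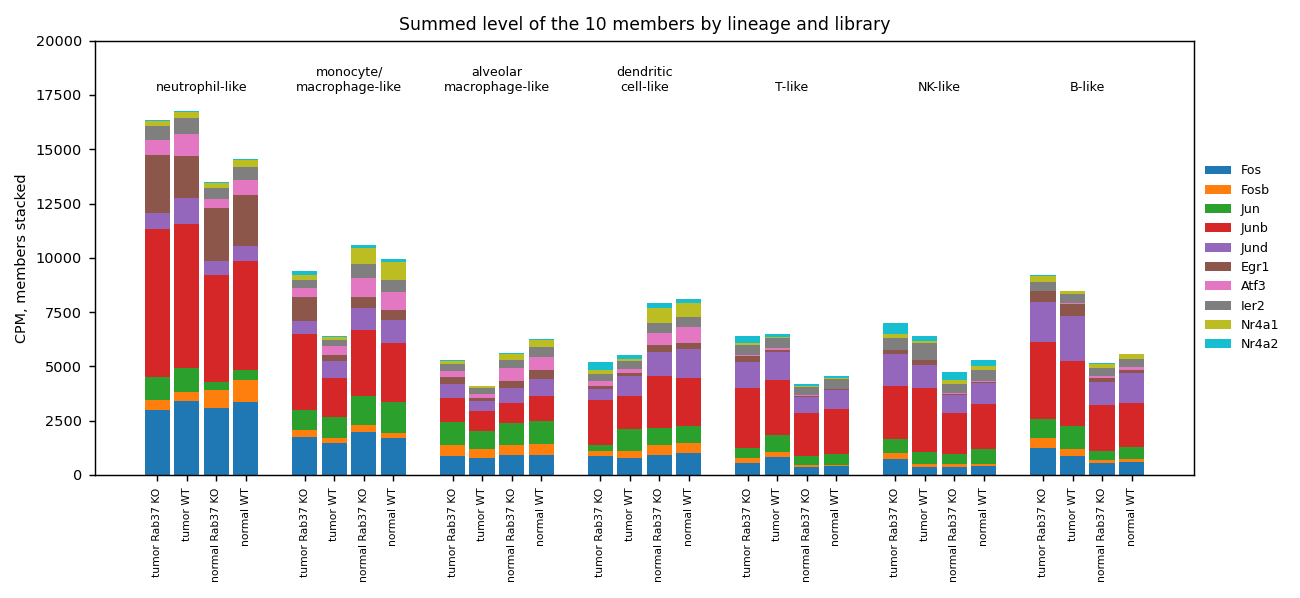
Stacked bars give the CPM of each of the 10 members (y axis, linear) by lineage and library, with tumor left of normal. Neutrophil-like bars are the tallest in all 4 libraries, and T-, NK- and B-like bars are taller in tumor than in normal lung of the same genotype.

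Fos and Junb were the most abundant AP-1 transcripts of neutrophil-like cells, and both were highest in that lineage in every library. Neutrophil-like Fos was 3002 CPM in tumor Rab37 KO, 3382 CPM in tumor WT, 3097 CPM in normal Rab37 KO and 3343 CPM in normal WT, a range of less than 1.5-fold over the 4 libraries. Monocyte/macrophage-like Fos was 1734 CPM in tumor Rab37 KO, 1455 CPM in tumor WT, 1979.5 CPM in normal Rab37 KO and 1681 CPM in normal WT. In T-like cells Fos stood at 556 CPM in tumor Rab37 KO, 823 CPM in tumor WT, 369 CPM in normal Rab37 KO and 402 CPM in normal WT, the tumor libraries above the normal ones. Fosb, a closely related Fos protein, had 468 CPM in tumor Rab37 KO, 445 CPM in tumor WT, 798 CPM in normal Rab37 KO and 1025 CPM in normal WT in neutrophil-like cells, so here the normal libraries were higher. Alveolar macrophage-like cells held Fosb at 512 CPM in tumor Rab37 KO, 453 CPM in tumor WT, 474 CPM in normal Rab37 KO and 492 CPM in normal WT, nearly level across libraries.

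Junb, an AP-1 subunit that often counters Jun, was the most abundant member in neutrophil-like cells, at 6805 CPM in tumor Rab37 KO, 6642 CPM in tumor WT, 4939.5 CPM in normal Rab37 KO and 5029.9 CPM in normal WT. Its level in monocyte/macrophage-like cells was 3508 CPM (3477 to 3541) in tumor Rab37 KO, 1794 CPM (1744 to 1844) in tumor WT, 3042 CPM (2980.4 to 3105) in normal Rab37 KO and 2731 CPM (2672 to 2790.4) in normal WT, lowest in tumor WT with no overlap of intervals. Jun was ordered differently over lineages: normal lung had it highest in monocyte/macrophage-like cells, and tumor had it at a similar level in several lineages. Neutrophil-like Jun was 1040.2 CPM (1017 to 1064) in tumor Rab37 KO, 1101 CPM (1016 to 1190.1) in tumor WT, 377 CPM (347 to 408) in normal Rab37 KO and 459 CPM (415 to 505) in normal WT, both tumor libraries above both normal libraries. Dendritic cell-like Jun was 292 CPM (256 to 330.4) in tumor Rab37 KO, 1030.2 CPM (917 to 1153) in tumor WT, 782 CPM (744 to 821) in normal Rab37 KO and 786 CPM (750.5 to 822) in normal WT, and tumor Rab37 KO was the low library. Jund, the Jun protein that is made without a stimulus in many cells, was highest in B-like cells of both tumor libraries, at 1846 CPM in tumor Rab37 KO and 2097 CPM in tumor WT, against 1063 CPM in normal Rab37 KO and 1363 CPM in normal WT.

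Egr1 differed widely over lineages, between 36.4 CPM in NK-like cells of normal Rab37 KO and 2667 CPM in neutrophil-like cells of tumor Rab37 KO. In neutrophil-like cells its level was 2667 CPM in tumor Rab37 KO, 1926 CPM in tumor WT, 2412 CPM in normal Rab37 KO and 2329.9 CPM in normal WT. In monocyte/macrophage-like cells Egr1 was 1066 CPM (1049 to 1084) in tumor Rab37 KO, 283 CPM (264 to 304) in tumor WT, 531 CPM (505 to 557) in normal Rab37 KO and 469.8 CPM (446 to 495) in normal WT; the order was tumor Rab37 KO, normal Rab37 KO, normal WT, tumor WT, with no overlap. T-like cells held Egr1 at 264 CPM (223 to 312) in tumor Rab37 KO, 82.3 CPM (52.2 to 124) in tumor WT, 49.6 CPM (45 to 54.6) in normal Rab37 KO and 58.3 CPM (53.2 to 63.8) in normal WT. Tumor Rab37 KO was the high library in T-like cells, and tumor WT overlapped normal WT. B-like Egr1 was 527 CPM in tumor Rab37 KO, 527 CPM in tumor WT, 165 CPM in normal Rab37 KO and 148 CPM in normal WT, the 2 tumor libraries level and both above normal lung.

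Atf3 was mainly a myeloid transcript. It stood at 687 CPM in tumor Rab37 KO, 994 CPM in tumor WT, 446 CPM in normal Rab37 KO and 726 CPM in normal WT in neutrophil-like cells and at 415 CPM in tumor Rab37 KO, 389.6 CPM in tumor WT, 869 CPM in normal Rab37 KO and 808 CPM in normal WT in monocyte/macrophage-like cells. The neutrophil-like order and the monocyte/macrophage-like order differed: tumor WT was highest in neutrophil-like cells, and both normal libraries were highest in monocyte/macrophage-like cells. NK-like Atf3 was 3 UMIs (10.2 CPM) in tumor Rab37 KO and 0 UMIs in tumor WT, where the floor of 3 counts is 33.0 CPM, against 27.7 CPM in normal Rab37 KO and 63.3 CPM in normal WT. Ier2, an immediate early gene that encodes a nuclear protein, varied less over lineages than Egr1 or Atf3 did, between 257 CPM in alveolar macrophage-like cells of tumor WT and 803 CPM in NK-like cells of the same library.

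Nr4a1 and Nr4a2 had different orders over lineages although their proteins are closely related. Nr4a1 was 207 CPM (199 to 215) in tumor Rab37 KO, 101 CPM (89.6 to 114) in tumor WT, 771 CPM (739.8 to 803) in normal Rab37 KO and 827 CPM (794 to 859.6) in normal WT in monocyte/macrophage-like cells, so both normal libraries were above both tumor libraries. Dendritic cell-like Nr4a1 had the same split, at 199.6 CPM in tumor Rab37 KO, 103 CPM in tumor WT, 674 CPM in normal Rab37 KO and 643 CPM in normal WT. Nr4a2 was highest in NK-like cells of every library, at 480.3 CPM in tumor Rab37 KO, 242 CPM in tumor WT, 349 CPM in normal Rab37 KO and 308 CPM in normal WT, and next highest in dendritic cell-like cells in all libraries. B-like Nr4a2 was low, at 43.9 CPM in tumor Rab37 KO, 11.3 CPM in tumor WT, 14.7 CPM in normal Rab37 KO and 12.7 CPM in normal WT, and rested on 11 UMIs in tumor Rab37 KO. Over the 28 sums of lineage and library, Nr4a2 levels correlated with those of the other members at Pearson r between -0.33 and 0.23, whereas Fos and Egr1 had r = 0.91, Fos and Fosb 0.79, and Nr4a1 and Atf3 0.66, as descriptions of sums that share libraries.

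**Figure D2:**
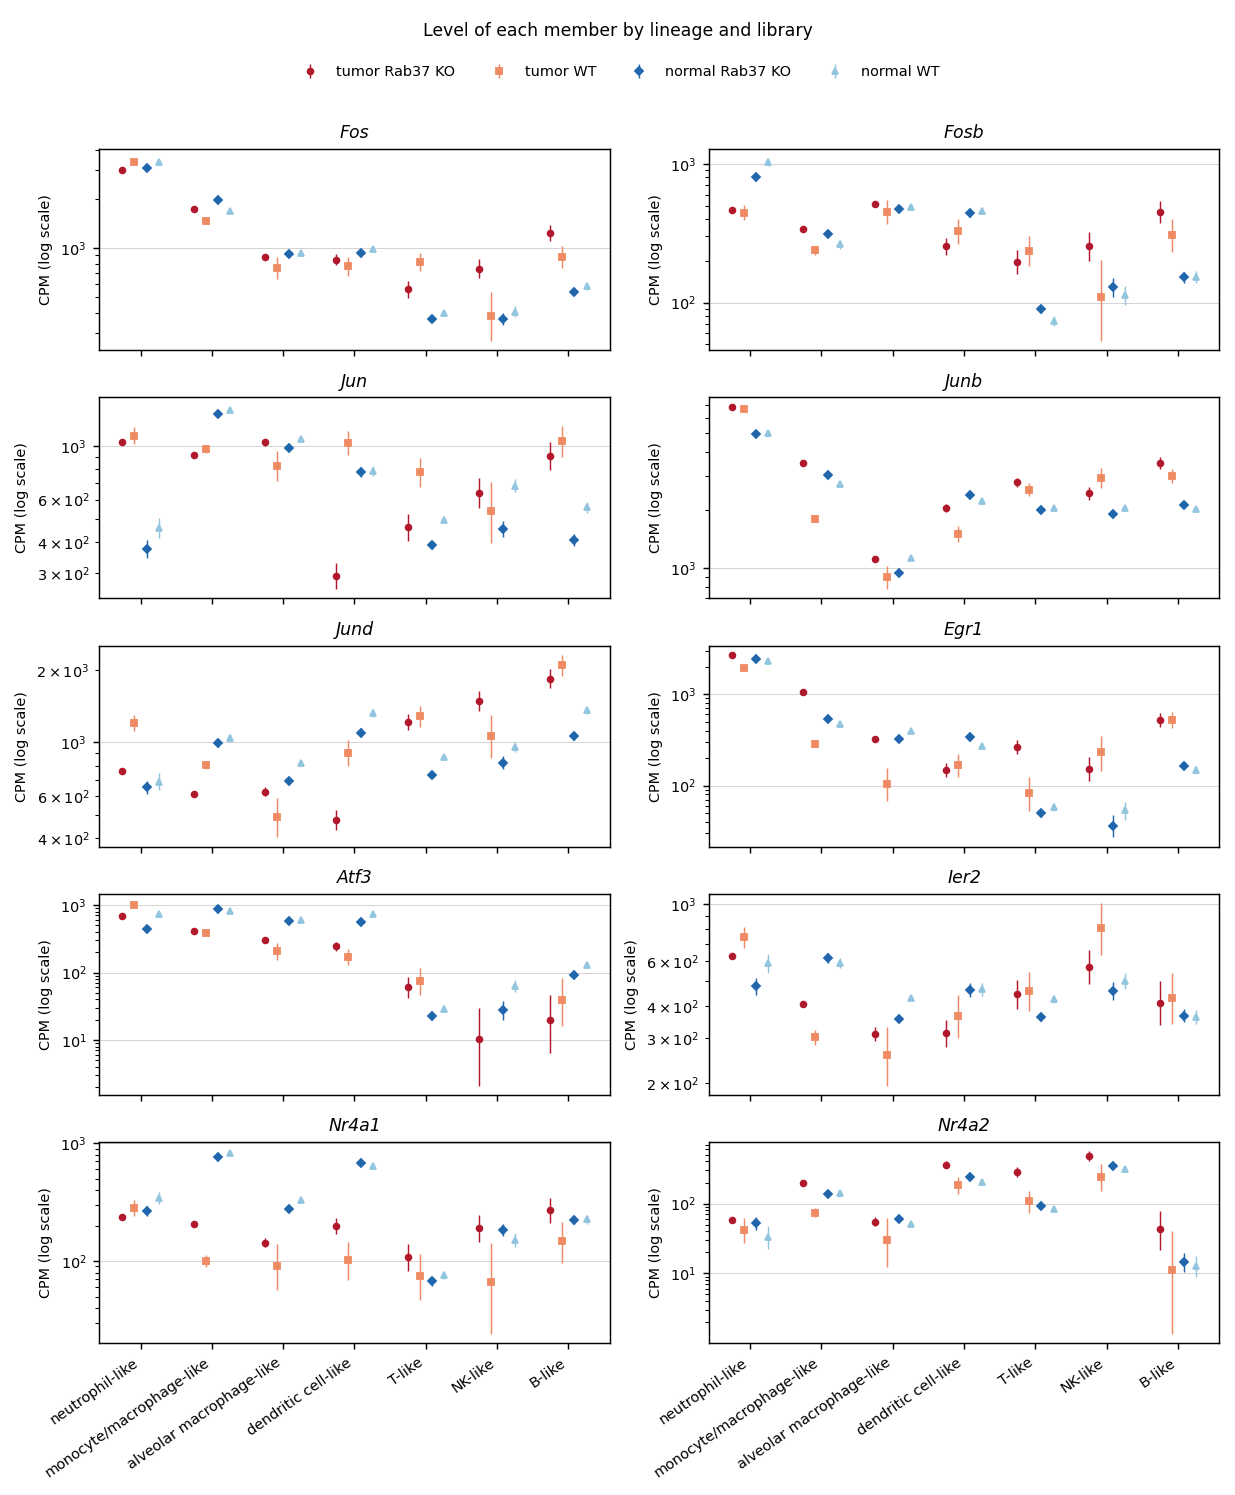
Each panel gives 1 member's CPM (y axis, log scale) by lineage, with 1 point per library and bars for the exact 95% Poisson interval; the NK-like Atf3 level of 0 in tumor WT is not drawn. Nr4a1 points of normal lung lie above those of tumor in monocyte/macrophage- and dendritic cell-like cells, and Egr1 points of tumor WT are the lowest in monocyte/macrophage- and alveolar macrophage-like cells.

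Rab37 KO was set against WT within tumor, the comparison that asks how loss of Rab37 changes tumor immune cells. Of 67 measured pairs of member and lineage, 16 were higher in tumor Rab37 KO, against 20.3% of all measured genes over the same lineages, and 5 were lower, against 18.3%. The interval of the ratio included 1 for 2 of these 21 pairs, Nr4a2 in alveolar macrophage-like and Egr1 in NK-like cells. The higher pairs were 5 of Nr4a1, 5 of Nr4a2, 3 of Egr1 and 1 each of Fos, Fosb and Junb. The lower ones were 2 of Jun, 2 of Jund and 1 of Egr1. Nr4a2 was above 1 in each of its 6 measured lineages, between 1.38 and 2.67. Atf3 and Ier2 passed the fold in no lineage, with ratios of 0.691 to 1.47 and 0.709 to 1.35. All lineages of these 2 libraries carry the sex difference between the libraries, whose part in these values was not tested.

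In monocyte/macrophage-like cells 4 of 10 members were higher in tumor Rab37 KO and 0 were lower, beside 21.9% and 19.7% of all 11108 measured genes. Egr1 had 1066 CPM in tumor Rab37 KO against 283 CPM in tumor WT, a ratio of 3.76 (3.50 to 4.05). The ratio was 2.67 (2.32 to 3.09) for Nr4a2, 2.04 (1.81 to 2.32) for Nr4a1 and 1.96 (1.90 to 2.01) for Junb. Mitochondrial UMIs made up 3.57% of these cells' UMIs in tumor Rab37 KO and 1.73% in tumor WT, and with cells of at most 5% mitochondrial UMIs all 21 pairs called in the 7 lineages kept their call. Fos (1.19), Fosb (1.43), Jun (0.946), Jund (0.759), Atf3 (1.06) and Ier2 (1.35) stayed under the fold. Neutrophil marker RNA moved with Egr1 and Junb: its level in monocyte/macrophage-like cells was 14.6% of the neutrophil-like level in tumor Rab37 KO and 5.03% in tumor WT, and the same share of the neutrophil-like Egr1 level is 390.0 CPM in tumor Rab37 KO and 96.9 CPM in tumor WT. For Nr4a1 and Nr4a2 that share is at most 34.8 CPM. Leaving out cells with at least 1% neutrophil marker UMIs (310 cells in tumor Rab37 KO and 24 in tumor WT), the Egr1 ratio was 2.01. All 21 pairs kept their side of the fold, but not all of them could change. NK- and B-like cells held 0 such cells in both tumor libraries. Neutrophil-like cells carry these markers themselves, so the filter cannot inform their pair. Averaging each cell's CPM, in place of summing UMIs, gave 1.16 for Nr4a1.

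The tumor monocyte/macrophage-like cells sat in different clusters by genotype. A classical monocyte-like cluster led by Arg1, Ppbp and Pf4 (cluster 8) held 521 cells of tumor Rab37 KO and 44 of tumor WT, and a macrophage-like cluster with high Gpnmb, Spp1 and Trem2 (cluster 20) held 29 and 131. Egr1 was higher in tumor Rab37 KO within both: 1332 CPM in tumor Rab37 KO against 597 CPM in tumor WT in cluster 8, a ratio of 2.23 (1.97 to 2.53), and 517 CPM in tumor Rab37 KO against 218 CPM in tumor WT in cluster 20, a ratio of 2.38 (2.06 to 2.74). A classical monocyte-like cluster led by Ms4a4c and Plac8 (cluster 12), with cells of all 4 libraries, gave 1.21 (0.777 to 1.97), whose interval includes 1. Nr4a1 was 0.931 (0.763 to 1.15) in cluster 8 and 2.13 (1.56 to 2.90) in cluster 20, and these intervals did not overlap. Nr4a2 was 1.27 (1.02 to 1.60) in cluster 8, 2.28 (1.40 to 3.94) in cluster 12 and 1.39 (0.935 to 2.03) in cluster 20. The summed level of the 10 members differed by less than 1.5-fold in each of these clusters, at 1.06 (1.02 to 1.09), 1.12 (1.06 to 1.19) and 1.09 (1.05 to 1.13) in the same order, against 1.47 (1.44 to 1.49) for the lineage.

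**Figure D3:**
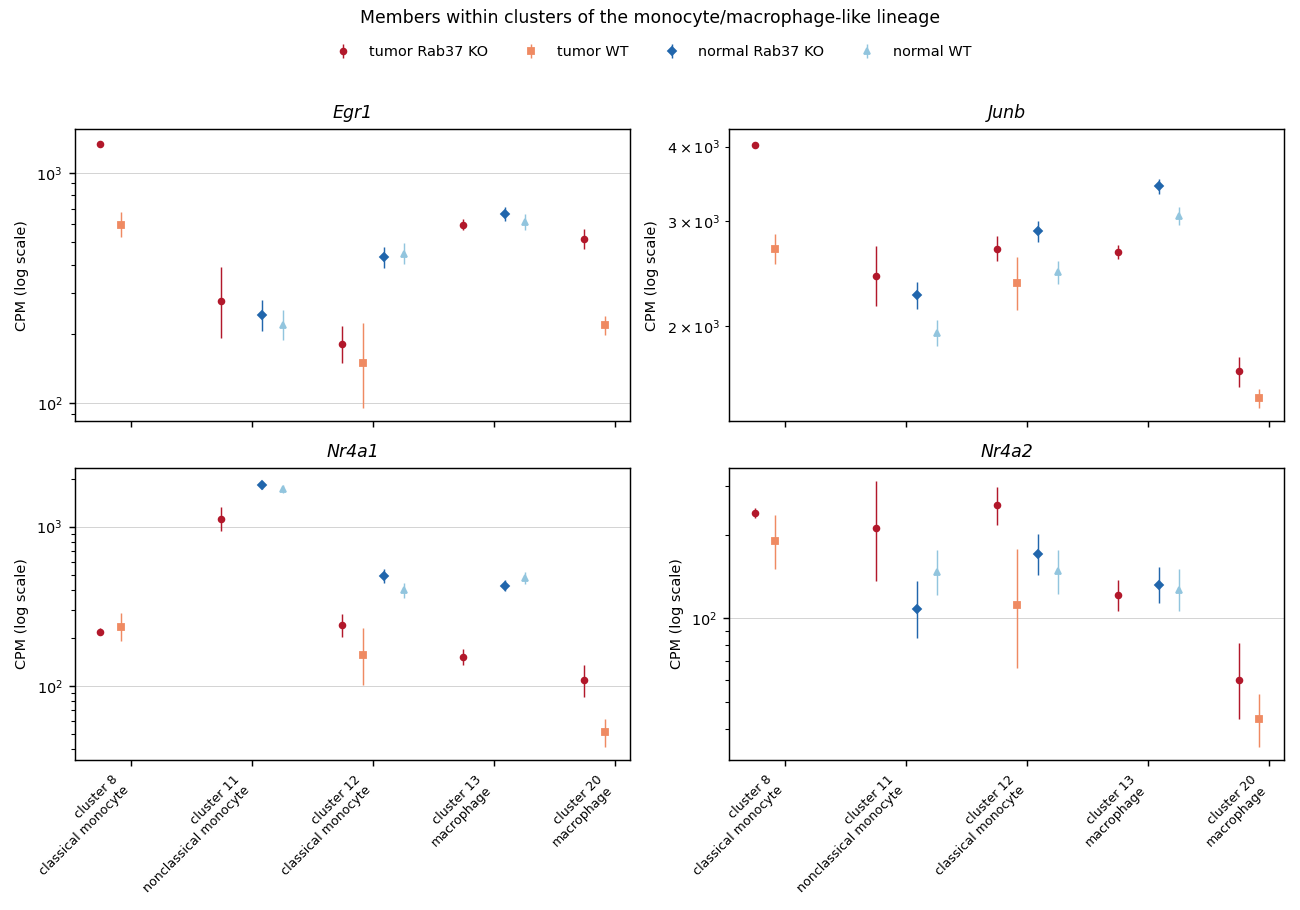
CPM (y axis, log scale) of Egr1, Junb, Nr4a1 and Nr4a2 in monocyte/macrophage-like clusters 8, 11, 12, 13 and 20, 1 point per library with at least 20 cells and 95% Poisson bars. Egr1 points of tumor Rab37 KO lie above those of tumor WT in clusters 8 and 20, and Nr4a1 is highest in cluster 11.

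Neutrophil-like cells differed less between the tumor genotypes, with 0 of 10 members higher and 1 lower (20.4% and 19.4% of all genes). Jund had 763 CPM in tumor Rab37 KO against 1202 CPM in tumor WT, a ratio of 0.635 (0.587 to 0.688), and 0.682 under median ratio scaling. Egr1 had a ratio of 1.38 (1.30 to 1.47) and Atf3 0.691 (0.634 to 0.755), both under the fold. Clusters 5 and 16 of neutrophil-like cells did not follow the pool. Ratios in cluster 7, with 522 cells of tumor Rab37 KO and 101 of tumor WT, are not given here. In the cluster led by Ccl3, Ccl4 and Cxcl3 (cluster 5, with 593 cells of tumor Rab37 KO and 71 of tumor WT), Atf3 was 643 CPM in tumor Rab37 KO against 1738 CPM in tumor WT, a ratio of 0.370 (0.324 to 0.425), and Jun was 0.533 (0.474 to 0.602). Cluster 16, led by the granule genes Camp, Ngp and Ltf (190 cells of tumor Rab37 KO and 21 of tumor WT), ran the other way, with Atf3 at 2.96 (1.72 to 5.58) and Egr1 at 1387 CPM in tumor Rab37 KO against 287 CPM in tumor WT, a ratio of 4.83 (3.48 to 6.91).

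Dendritic cell-like cells had 2 members higher (15.6% of all genes) and 2 lower (20.4%). Jun showed the lowest ratio of any pair within tumor, 292 CPM in tumor Rab37 KO against 1030.2 CPM in tumor WT, or 0.283 (0.238 to 0.336), and Jund had 0.527 (0.450 to 0.617). Nr4a2 was 1.97 (1.47 to 2.69) and Nr4a1 1.94 (1.31 to 2.97), while Junb was 1.37 and Fos 1.10, both under the fold. Thinning every cell to 1500 UMIs took Nr4a2 to 1.35, and lineages from each cell's own markers took it to 3.26. The libraries differed in subsets of these cells: cluster 18, led by Cd209a and Mgl2, held 43 of 55 cells in tumor Rab37 KO and 15 of 26 in tumor WT, and cluster 39, led by Fscn1 and Apol7c, held 0 and 7. No dendritic cell-like cluster had 20 cells in both tumor libraries, so no value within a cluster is given, and the part of subsets was not tested. In alveolar macrophage-like cells, with 23 cells in tumor WT, Egr1 was 324 CPM in tumor Rab37 KO against 105 CPM in tumor WT, a ratio of 3.1 (2.07 to 4.86) and of 1.67 after thinning, within a count of 3 higher and 0 lower (27.8% and 15% of all genes). Their Nr4a1 ratio was 1.57 (1.01 to 2.55), 0.968 after thinning and 1.13 by the mean of each cell's CPM.

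In lymphocytes Nr4a2 was higher in T- and NK-like cells of tumor Rab37 KO, and Nr4a1 in NK- and B-like cells. T-like Nr4a2 was 287 CPM in tumor Rab37 KO against 107 CPM in tumor WT, a ratio of 2.67 (1.80 to 4.09), and T-like Egr1 was 3.21 (2.06 to 5.23), while Jun was 0.594 (0.493 to 0.716); this is 2 higher and 1 lower (14.9% and 17.4% of all genes). A single cell held 25.4% of the T-like Egr1 UMIs of tumor Rab37 KO, and the ratio was 2.88 without the top cell of each library. With lineages taken from each cell's own markers in place of clusters, T-like Egr1 was 0.666, on the other side of 1, and by the mean of each cell's CPM it was 2.09. NK-like cells had 4 higher and 1 lower (16.2% and 18.1%): Nr4a1 2.89 (1.25 to 8.21), Fosb 2.32 (1.20 to 5.04), Nr4a2 1.99 (1.26 to 3.27) and Fos 1.94 (1.35 to 2.86), with Egr1 at 0.664 (0.387 to 1.17). NK-like Egr1 was 1.18 with own markers and between 0.698 and 0.787 in 3 other settings, all under the fold. NK-like Fosb was 1.55 with own markers. The NK-like Fos ratio was 3.09 without the top cell of each library, since 1 cell held 45.7% of the tumor WT UMIs. B-like Nr4a1 was 272 CPM in tumor Rab37 KO against 147 CPM in tumor WT. B-like cells had this gene at 1.84 (1.16 to 3.02) as their 1 higher member and 0 lower (13.4% and 17.7%), with Fos at 1.40 (1.15 to 1.70) and Egr1 at 1.00 (0.761 to 1.32).

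**Figure D4:**
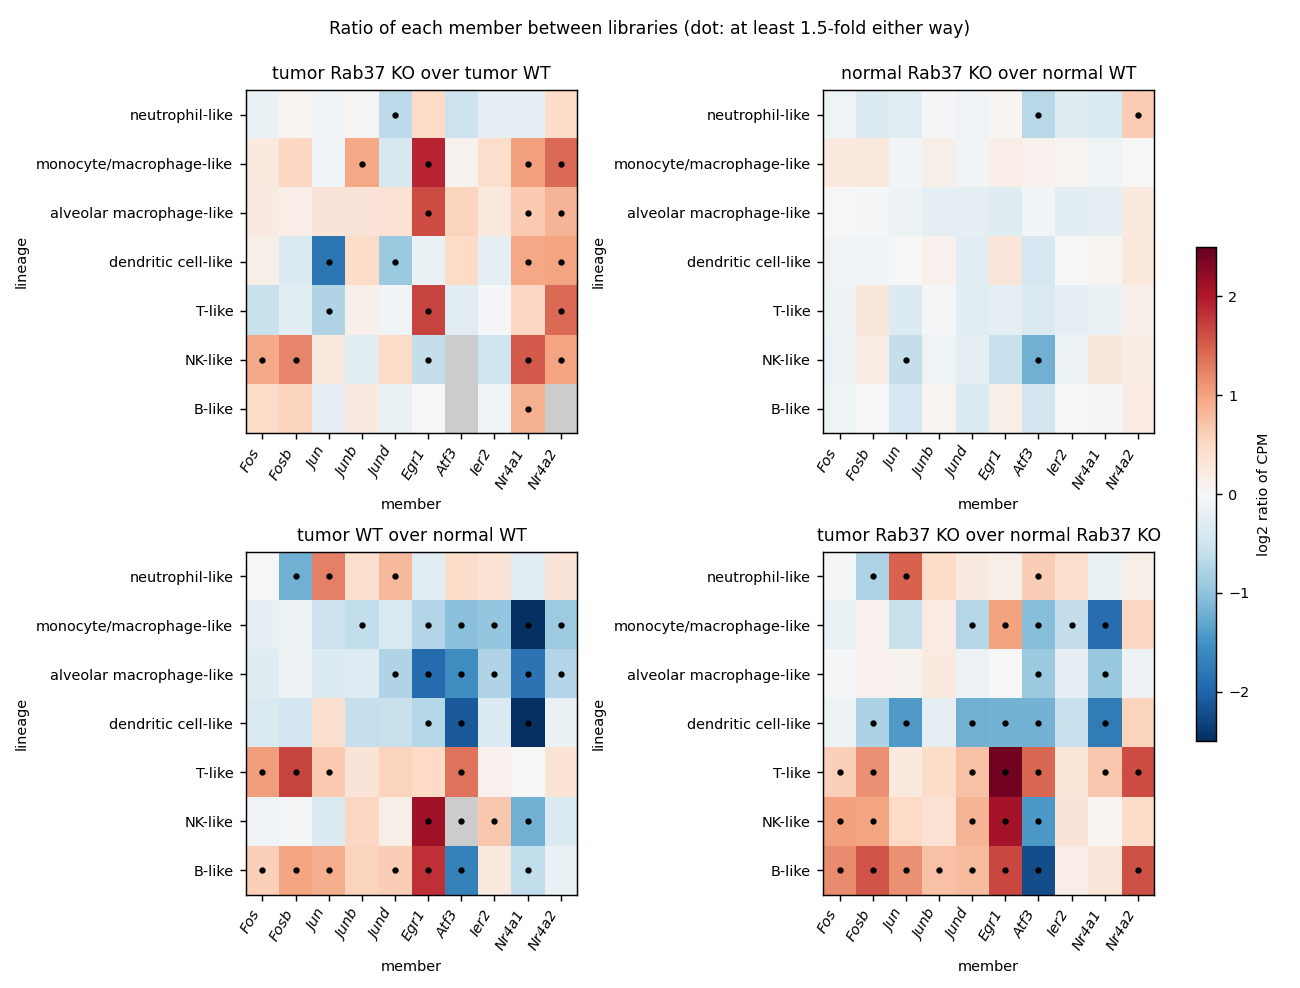
Heat maps give the log2 ratio of each member (columns) in each lineage (rows) for the 4 comparisons. A dot marks at least 1.5-fold and grey marks pairs under 20 UMIs or with a ratio of 0. Nr4a1 and Nr4a2 are mostly positive in tumor Rab37 KO against tumor WT, normal Rab37 KO against normal WT is mostly near 0, and Atf3 and Nr4a1 are negative in monocyte/macrophage-, alveolar macrophage- and dendritic cell-like cells in both tumor against normal panels.

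In normal lung few members passed the fold between the genotypes when both sexes were pooled. Counts within male and within female cells differed from the pooled ones and are given in the closing section. Of 70 measured pairs, 1 was higher in normal Rab37 KO (6.38% of all measured genes) and 3 were lower (5.28%), and none of the 4 ratios had an interval that included 1. Neutrophil-like cells held 1 higher and 1 lower (12.4% and 7.12% of all genes) and NK-like cells 0 and 2 (7.9% and 6.18%). No member passed the fold in monocyte/macrophage- (7.51% higher and 4.69% lower of all genes), alveolar macrophage- (2.57% and 4.5%), dendritic cell- (8.24% and 6.51%), T- (4.2% and 4.79%) or B-like cells (6.32% and 4.54%). Atf3 was lower in neutrophil-like cells, 446 CPM in normal Rab37 KO against 726 CPM in normal WT, a ratio of 0.615 (0.552 to 0.685), and in NK-like cells, at 0.438 (0.292 to 0.643). NK-like Jun was 0.663 (0.600 to 0.733), near the fold, and 0.704 with lineages from each cell's own markers; 4 other settings gave 0.677 to 0.689. Nr4a2 in neutrophil-like cells was 52.3 CPM in normal Rab37 KO against 33.7 CPM in normal WT, a ratio of 1.56 (1.01 to 2.45), of 1.19 after thinning and of 1.16 with own markers. The summed level of the 10 members had ratios between 0.894 in NK-like and 1.07 in monocyte/macrophage-like cells. Monocyte/macrophage-like Egr1, the pair with the largest ratio within tumor, was 531 CPM in normal Rab37 KO against 469.8 CPM in normal WT, a ratio of 1.13 (1.05 to 1.21). Both sexes were present here: Egr1 in these cells was 666 CPM in female and 509 CPM in male cells of normal Rab37 KO, and 370.3 CPM in female and 585 CPM in male cells of normal WT, so female cells were higher in normal Rab37 KO and male cells in normal WT.

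Tumor was then set against normal lung within each genotype. In Rab37 KO, 21 of 70 measured pairs were higher in tumor (20.9% of all genes) and 15 were lower (15.9%). In WT, 13 of 70 were higher (26.9%) and 20 were lower (21.8%). In both genotypes at once, 10 pairs were higher (8.81% of all genes) and 11 were lower (6.87%), and 1 pair, Egr1 in monocyte/macrophage-like cells, passed the fold in opposite directions. The interval of the ratio included 1 for 1 of 36 called pairs in Rab37 KO, Atf3 in NK-like cells, and for 1 of 33 in WT, Nr4a2 in alveolar macrophage-like cells; the NK-like Atf3 level of tumor WT, at 0 UMIs, was at least 1.92-fold lower than in normal WT. B- and T-like cells held most of the higher pairs and myeloid cells most of the lower ones. The pairs that were higher in both were Fos, Fosb, Jun, Jund and Egr1 in B-like cells, Fos, Fosb and Atf3 in T-like cells, Egr1 in NK-like cells and Jun in neutrophil-like cells. The pairs that were lower in both were Atf3 in every lineage but neutrophil- and T-like, Nr4a1 in monocyte/macrophage-, alveolar macrophage- and dendritic cell-like cells, Ier2 in monocyte/macrophage-like, Egr1 in dendritic cell-like and Fosb in neutrophil-like cells. Tumor and normal libraries were made with different versions of the counting software (3.1.0 and 3.0.1), which cannot be told apart from tissue, and protocols are given in the labels for tumor digestion without a separate account for normal lung.

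Nr4a1 had the lowest tumor ratios of the members in monocyte/macrophage-like cells, where 1 member was higher and 4 were lower in Rab37 KO (18.1% and 21.2% of all genes) and 0 were higher and 6 lower in WT (21.4% and 22.7%). Its levels, given above, make ratios of 0.268 (0.253 to 0.283) in Rab37 KO and 0.122 (0.108 to 0.138) in WT, where the mean of each cell's CPM gave 0.189. Nr4a1 also differed between subsets of these cells: the nonclassical monocyte-like cluster 11, which held 25 cells of tumor Rab37 KO and 11 of tumor WT but 136 of normal Rab37 KO and 171 of normal WT, had Nr4a1 at 1120 CPM in tumor Rab37 KO, 1819 CPM in normal Rab37 KO and 1727 CPM in normal WT. Nr4a1 was lower in tumor within clusters too. In cluster 12 it was 0.491 (0.405 to 0.593) in Rab37 KO and 0.392 (0.25 to 0.589) in WT, and in the C1q macrophage-like cluster 13 it was 152 CPM in tumor Rab37 KO against 426 CPM in normal Rab37 KO, a ratio of 0.357 (0.310 to 0.410). Atf3 was 0.477 (0.455 to 0.50) in Rab37 KO and 0.482 (0.448 to 0.518) in WT in the lineage, and 0.435 (0.396 to 0.477) in cluster 13 of Rab37 KO. Ier2 was 0.663 (0.628 to 0.699) and 0.514 (0.473 to 0.558), and without the top cell of each library its Rab37 KO ratio was 0.672, just under the fold, and it was also under it at 0.710 with median ratio scaling and 0.694 in male cells.

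Egr1 in monocyte/macrophage-like cells was higher in tumor within Rab37 KO, 1066 CPM in tumor Rab37 KO against 531 CPM in normal Rab37 KO, a ratio of 2.01 (1.91 to 2.12), and lower in tumor within WT, 283 CPM in tumor WT against 469.8 CPM in normal WT, a ratio of 0.603 (0.552 to 0.659). The difference between these ratios was not tested. Without cells of at least 1% neutrophil marker UMIs the Rab37 KO ratio was 1.11, and with own markers 1.47, both under the fold. With female cells alone the WT ratio was 0.770, after thinning it was 0.765, and by the mean of each cell's CPM it was 0.680, all under the fold. In cluster 12, the classical monocyte-like cluster with at least 20 cells of every library, Egr1 was lower in tumor of both genotypes: 181 CPM in tumor Rab37 KO against 429.9 CPM in normal Rab37 KO, a ratio of 0.421 (0.338 to 0.521), and 149 CPM in tumor WT against 447 CPM in normal WT, a ratio of 0.334 (0.211 to 0.505). Most Rab37 KO tumor cells of the lineage were in cluster 8, which held 3 and 1 cells of the normal libraries.

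Alveolar macrophage-like cells of tumor had lower Atf3 and Nr4a1 in both genotypes. Atf3 stood at 307 CPM in tumor Rab37 KO, 209 CPM in tumor WT, 581 CPM in normal Rab37 KO and 609.8 CPM in normal WT. In Rab37 KO 0 members were higher and 2 lower (9.53% and 7.15% of all genes), and in WT 0 were higher and 6 lower (19.5% and 31.1%). Atf3 was 0.529 (0.494 to 0.566) in Rab37 KO and 0.343 (0.253 to 0.455) in WT, and Nr4a1 was 0.516 (0.466 to 0.570) and 0.279 (0.173 to 0.427). Egr1 was 1.00 (0.933 to 1.07) in Rab37 KO but 0.263 (0.169 to 0.392) in WT; the tumor WT level rests on 23 cells and the difference was not tested. After thinning, the WT ratios in these cells were 0.477 for Egr1 and 0.476 for Nr4a1. In the largest cluster of these cells, cluster 0, Atf3 was 0.518 (0.480 to 0.559) and 0.329 (0.235 to 0.449), close to the lineage values. Dendritic cell-like cells had 0 members higher and 6 lower in Rab37 KO (19.4% and 22.9% of all genes), and 0 higher and 3 lower in WT (27.9% and 19.8%). Their Atf3 was 243 CPM in tumor Rab37 KO, 171 CPM in tumor WT, 553 CPM in normal Rab37 KO and 738 CPM in normal WT, low in both tumor libraries. Dendritic cell-like Nr4a1 was 0.296 (0.251 to 0.348) in Rab37 KO and 0.160 (0.107 to 0.229) in WT, and Atf3 was 0.440 (0.377 to 0.511) and 0.232 (0.171 to 0.307). The Rab37 KO ratio of Nr4a1 was 0.446 in male cells, and that of Atf3 was 0.259 after thinning. Cluster 18 held 43 of 55 cells of tumor Rab37 KO and 15 of 26 of tumor WT, but 51 of 158 of normal Rab37 KO and 83 of 211 of normal WT, whose cells were mostly in cluster 14, led by Il12b and Ccl17. Within cluster 18 in Rab37 KO, Nr4a1 was 231 CPM in tumor Rab37 KO against 384 CPM in normal Rab37 KO, a ratio of 0.600 (0.483 to 0.742), which is over 1.5 times the lineage value, and Atf3 was 0.533 (0.441 to 0.641). The same cluster gave 0.750 (0.625 to 0.899) for Jun and 0.781 (0.609 to 0.999) for Egr1, both under the fold. In WT it had too few tumor cells for a value. Dendritic cell-like Jun was 0.373 (0.325 to 0.427) in Rab37 KO, while in WT it was 1.31 (1.16 to 1.48). Egr1 in these cells was 0.439 (0.360 to 0.531) and 0.613 (0.449 to 0.820), and in WT 1.04 after thinning, 0.752 by the mean of each cell's CPM and 0.676 without cells of at least 1% neutrophil marker UMIs. The neutrophil RNA share of these cells corresponds to 32.7 of 149 CPM of Egr1 in tumor Rab37 KO and 87.5 of 168 CPM in tumor WT.

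Neutrophil-like cells of tumor had more Jun in both genotypes, at ratios of 2.76 (2.54 to 3.01) in Rab37 KO and 2.40 (2.11 to 2.72) in WT, and less Fosb, at 0.587 (0.550 to 0.626) and 0.434 (0.376 to 0.499). Egr1 and Fos were within 1.5-fold in both genotypes, and 2 members were higher and 1 lower in each (41.4% and 10.8% of all genes in Rab37 KO, 35.4% and 14.9% in WT). Tumor and normal neutrophil-like cells shared almost no cluster: cluster 3 held 6 and 13 cells of tumor Rab37 KO and tumor WT against 547 and 364 of normal Rab37 KO and normal WT, and clusters 5, 7 and 16 held most tumor cells.

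In B- and T-like cells most members past the fold were higher in tumor. For T- and NK-like cells of WT the counts were near the shares of all genes given below. B-like cells had 7 higher and 1 lower in Rab37 KO (21.7% and 19.9% of all genes) and 5 higher and 2 lower in WT (29.5% and 18.4%). B-like Fos was 1234 CPM in tumor Rab37 KO, 884 CPM in tumor WT, 541 CPM in normal Rab37 KO and 582 CPM in normal WT, both tumor libraries above both normal ones. B-like Egr1 was 3.2 (2.62 to 3.89) in Rab37 KO and 3.57 (2.81 to 4.48) in WT, and Fos was 2.28 (2.01 to 2.58) and 1.52 (1.28 to 1.79). The Egr1 ratio in Rab37 KO was 1.72 with cells of at most 5% mitochondrial UMIs. The B-like WT ratios of Fos and Jund were near the fold and under it in several settings: Fos was 1.35 without ribosomal and mitochondrial UMIs, 1.43 under median ratio scaling, 1.46 by the mean of each cell's CPM and 1.43 without the top cell of each library. For Jund these were 1.36, 1.45 and, without the top cell, 1.46. B-like Fosb was 2.97 (2.39 to 3.66) and 1.99 (1.47 to 2.65), and Jun was 2.22 (1.92 to 2.56) and 1.88 (1.61 to 2.19). Jun was 3.60 in male cells of Rab37 KO and 2.88 in female cells of WT. Atf3 was the member that ran against these in B-like cells, at 0.215 (0.0691 to 0.507) and 0.309 (0.123 to 0.643); it rested on 5 UMIs in tumor Rab37 KO and 7 in tumor WT. After thinning the Atf3 ratio was 0.739 in Rab37 KO, under the fold, and 0.609 in WT, and the other settings that moved it by over 1.5 times gave 0.0983 to 0.509 in Rab37 KO and 0.204 to 0.487 in WT. T-like cells had 7 members higher and 0 lower in Rab37 KO (25.1% and 14.6% of all genes) and 4 higher and 0 lower in WT (35.3% and 16.9%). Their Fos was 1.51 (1.33 to 1.70) and 2.05 (1.79 to 2.34), and Fosb was 2.20 (1.78 to 2.70) and 3.21 (2.45 to 4.15). T-like Egr1 had the largest ratio of all, 264 CPM in tumor Rab37 KO against 49.6 CPM in normal Rab37 KO, or 5.32 (4.37 to 6.45), 4.33 without the top cell of each library and 3.44 with own markers; in WT it was 1.41 (0.886 to 2.14). NK-like cells had 4 members higher and 1 lower in Rab37 KO (12.9% and 16.4% of all genes) and 2 higher and 2 lower in WT (24.6% and 23.5%). Their Egr1 was 153 CPM in tumor Rab37 KO, 231 CPM in tumor WT, 36.4 CPM in normal Rab37 KO and 53.4 CPM in normal WT. NK-like Egr1 was 4.21 (2.75 to 6.42) in Rab37 KO and 4.32 (2.54 to 7.06) in WT, and with own markers 2.51 and 2.08.

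T-like ratios depended on scaling and on subset. Scaling by the median ratio of genes moved all T-like log2 ratios by -0.30 in Rab37 KO and -0.32 in WT, and by -0.24 and -0.23 in dendritic cell-like cells. T-like Fos was then 1.22, Jund 1.36 and Nr4a1 1.30 in Rab37 KO, and Jun 1.25 in WT, so 3 of 7 higher members in Rab37 KO and 1 of 4 in WT came under the fold. The same 4 came under it without ribosomal and mitochondrial UMIs, at 1.26, 1.40, 1.35 and 1.28. Taking lineages from each cell's own markers gave T-like Fos at 0.797 and Atf3 at 0.750 in Rab37 KO, on the other side of 1, and thinning gave 1.20 for Atf3. Cluster 2, led by Cd8b1, Dapl1 and Lef1, held 11 T-like cells of each tumor library against 598 of normal Rab37 KO and 638 of normal WT. Within the Foxp3 and Ctla4 cluster 9, Fos was 0.993 (0.728 to 1.33) in Rab37 KO and 2.33 (1.83 to 2.94) in WT, and Egr1 was 2.35 (1.28 to 4.13) and 2.21 (1.06 to 4.22). Within cluster 6, led by Xcl1 and Ccl5, Egr1 was 257 CPM in tumor Rab37 KO against 70.4 CPM in normal Rab37 KO, a ratio of 3.64 (2.55 to 5.14). B-like cluster 1.0, with Ighd and Ebf1, gave Egr1 at 6.45 (4.44 to 9.29) in Rab37 KO.

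The 68 further genes of the same response were read in 5 lists: 14 other immediate early transcription factors, 19 feedback and signalling genes, 11 other bZIP partners of Fos and Jun proteins, 13 upstream kinases and factors, and 11 heat shock genes. Of all genes measured in monocyte/macrophage-like cells, 21.9% were higher and 19.7% lower in tumor Rab37 KO than in tumor WT. The other transcription factors had 8 of 14 measured genes higher and 0 lower. The feedback genes had 14 of 19 measured genes higher and 0 lower. The medians of these lists on the log2 scale were 1.27 and 1.09, beside 0.47 for the 10 members and 0.00 for all genes. Nfkbiz, a nuclear IkB protein, was 451 CPM in tumor Rab37 KO against 87.1 CPM in tumor WT, a ratio of 5.17 (4.55 to 5.91). Csrnp1, an immediate early nuclear protein, was 301 CPM in tumor Rab37 KO against 67.7 CPM in tumor WT, or 4.45 (3.84 to 5.17), and Nr4a3, the other member of the Nr4a family, was 3.42 (2.64 to 4.51). Dusp5, a phosphatase that ends ERK signalling, was 3.59 (3.15 to 4.11), and Zfp36l1, which promotes decay of AU-rich mRNAs, was 3.27 (2.99 to 3.58). The bZIP partners had 7 of 11 measured genes higher and 1 lower, led by Jdp2, a repressor that pairs with Jun, at 2.53 (2.18 to 2.96). The upstream list had 4 of 13 measured genes higher and 0 lower, led by Mef2d at 3.19 (2.63 to 3.91). The heat shock list had 1 of 11 measured genes higher and 2 lower, with a median of -0.03. Neutrophil marker RNA moved with these lists as well, at the shares given above, and its part was not tested. Cells of this lineage also sat in different clusters by genotype. Cluster 8 held 521 cells of tumor Rab37 KO and 44 of tumor WT, and cluster 20 held 29 and 131. Ratios of these lists within clusters are not given, and the part of subsets was not tested.

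In the tumor comparison, alveolar macrophage-like cells had 11 of 19 measured feedback genes higher and 1 lower (27.8% and 15% of all genes). T-like cells had 7 of 18 measured feedback genes higher and 1 lower (14.9% and 17.4%). Ier3, an immediate early survival gene, was 320.1 CPM in tumor Rab37 KO against 100.2 CPM in tumor WT in T-like cells, a ratio of 3.19 (2.13 to 4.95), and Crem, a cAMP response modulator, was 2.69 (1.70 to 4.47). Neutrophil-like cells had 1 of 19 measured genes higher and 1 lower in the feedback list (20.4% and 19.4% of all genes). In normal Rab37 KO against normal WT the largest count was in alveolar macrophage-like cells. The feedback list had 0 of 19 measured genes higher and 4 lower there (2.57% and 4.5% of all genes). Nfkbiz was 80.7 CPM in normal Rab37 KO against 155 CPM in normal WT in these cells, a ratio of 0.522 (0.481 to 0.566). An alveolar macrophage-like cluster led by Cxcl10, Tnf and Il1a (cluster 23) held 13 cells of normal Rab37 KO and 93 of normal WT, and its part in these values was not tested.

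Against normal lung, monocyte/macrophage-like cells of tumor WT had 0 of 14 measured other transcription factors higher and 12 lower (21.4% and 22.7% of all genes). Among the feedback genes 1 of 19 measured genes was higher and 14 were lower. The medians of these lists were -0.99 and -1.22, beside -0.03 for all genes. In Rab37 KO the same lists had 3 of 14 measured genes higher and 4 lower, and 2 of 19 higher and 5 lower. The shares of all genes in Rab37 KO were 18.1% and 21.2%. Tumor and normal cells of this lineage also sat largely in different clusters, whose part in these counts was not tested. Rel, an NF-kB subunit, was lower in tumor of both, at 0.409 (0.382 to 0.439) in Rab37 KO and 0.321 (0.283 to 0.363) in WT, and Klf2, a factor of quiescence, was 0.477 (0.452 to 0.503) and 0.363 (0.335 to 0.392). Ier3 ran the other way in Rab37 KO, 3152 CPM in tumor Rab37 KO against 782 CPM in normal Rab37 KO, a ratio of 4.03 (3.87 to 4.20). T-like cells of tumor Rab37 KO had 10 of 19 measured feedback genes higher and 0 lower (25.1% and 14.6% of all genes). Those of tumor WT had 5 of 19 measured feedback genes higher and 0 lower (35.3% and 16.9%). The higher count in WT was thus under the share of all genes. The WT median of the list on the log2 scale was 0.083, beside 0.367 for all genes. Gadd45b, a stress-induced signalling protein, was 3.02 (2.56 to 3.55) in Rab37 KO and 2.13 (1.65 to 2.71) in WT in T-like cells. Ier3 was 16.4 (13.2 to 20.4) and 3.96 (2.57 to 5.90). B-like cells of tumor Rab37 KO had 6 of 13 measured other transcription factors higher and 0 lower (21.7% and 19.9% of all genes). The higher ones included Klf4 at 3.53 (2.73 to 4.52) and Egr2, a relative of Egr1, at 5.64 (2.67 to 11.3).

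Among 5907 genes, those whose levels closely resembled the members' mean over the 28 sums included Zfp36 with r = 0.864, Ier5 with 0.843, Nfkbia with 0.838, Kdm6b with 0.834, Kctd12 with 0.829, Nfkbiz with 0.821, Gadd45b with 0.810, Dusp16 with 0.80 and Rasgrp4 with 0.797. Of these, Zfp36, Ier5, Nfkbia, Nfkbiz and Gadd45b were in the feedback list. Zfp36 encodes a protein that promotes decay of AU-rich mRNAs, and Nfkbia encodes an inhibitor of NF-kB. Likeness is Pearson's r of log2(CPM + 10) with the mean z-score of the 10 members, and the sums share libraries and lineages.

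Cells were thinned to 1500 UMIs to compare shares of cells with at least 1 UMI. In monocyte/macrophage-like cells Egr1 was found in 58.1% (54.5 to 61.6) of cells of tumor Rab37 KO, 28.2% (22.1 to 34.8) of tumor WT, 30.9% (26.1 to 36.0) of normal Rab37 KO and 34.6% (29.9 to 39.5) of normal WT, with exact Clopper-Pearson intervals. Without thinning the shares were 83.2%, 55.8%, 55.6% and 50.2% in the same order. Nr4a1 was found in 25.9% (22.8 to 29.2), 13.1% (8.82 to 18.5), 49.4% (44.1 to 54.8) and 56.5% (51.5 to 61.4) of these cells, and unthinned in 73.3%, 47.9%, 79.8% and 79.2%. Egr1 was found in 23.5% (14.8 to 34.2) of T-like cells of tumor Rab37 KO and 7.27% (2.02 to 17.6) of tumor WT, against 5.32% (4.20 to 6.64) in normal Rab37 KO and 8.0% (6.69 to 9.47) in normal WT; unthinned these were 47.6%, 26.8%, 16.6% and 18.8%. No lineage is known to lack these genes, so no share here can serve as a background level for free RNA. Thinning left out 22, 11, 16 and 12 monocyte/macrophage-like cells and 1, 1, 4 and 9 T-like cells in the order tumor Rab37 KO, tumor WT, normal Rab37 KO and normal WT.

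Many cells carried several members at once. After thinning, at least 5 of the 10 members were found in 69.7% of neutrophil-like cells of tumor Rab37 KO, 82.9% of tumor WT, 67.9% of normal Rab37 KO and 79.9% of normal WT. In T-like cells the shares were 34.6% in tumor Rab37 KO and 30.9% in tumor WT, against 11.4% in normal Rab37 KO and 14.1% in normal WT. Dendritic cell-like cells ran the other way, with 31.5% in tumor Rab37 KO and 34.6% in tumor WT, against 59.4% in normal Rab37 KO and 57.6% in normal WT. The top 10% of cells held between 18.6% and 26.3% of the members' UMIs over the lineages and libraries.

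Because enzymatic digestion induces both gene sets, the summed level of 11 heat shock genes is given beside the members. In monocyte/macrophage-like cells it was 5769.6 CPM in tumor Rab37 KO, 5829.7 CPM in tumor WT, 18740 CPM in normal Rab37 KO and 18576 CPM in normal WT. Alveolar macrophage-like cells had 6298 CPM in tumor Rab37 KO, 4869 CPM in tumor WT, 11732 CPM in normal Rab37 KO and 11508 CPM in normal WT, and dendritic cell-like cells 7285 CPM in tumor Rab37 KO, 7229 CPM in tumor WT, 17409 CPM in normal Rab37 KO and 18203 CPM in normal WT. In these lineages both tumor libraries were low in heat shock RNA, as they were in Atf3 and Nr4a1. Hspa1b, an inducible Hsp70 gene, was 401 CPM in tumor Rab37 KO against 3896 CPM in normal Rab37 KO, and 357 CPM in tumor WT against 4095 CPM in normal WT, in monocyte/macrophage-like cells. In T- and B-like cells, where Fos and Fosb were higher in both tumors, the heat shock sum was not higher in tumor: it was 7720 CPM in tumor Rab37 KO, 10280 CPM in tumor WT, 11139 CPM in normal Rab37 KO and 11960 CPM in normal WT in T-like cells and 9503 CPM in tumor Rab37 KO, 10703 CPM in tumor WT, 9605 CPM in normal Rab37 KO and 11210 CPM in normal WT in B-like cells. Neutrophil-like cells had the lowest heat shock level and the highest member level in every library, at 2648 CPM in tumor Rab37 KO, 2397 CPM in tumor WT, 1880.1 CPM in normal Rab37 KO and 1848 CPM in normal WT. Within tumor, the heat shock sums of monocyte/macrophage-like cells of Rab37 KO and WT were within 1.5-fold, where Egr1, Nr4a1, Nr4a2 and Junb were higher in Rab37 KO. Dissociation of tissue is a possible source of immediate early RNA. The labels describe mincing in cold buffer and 30 min at 37 °C with collagenase and dispase, and no library was made without digestion or with a transcription inhibitor. The part of dissociation in these levels was not tested.

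**Figure D5:**
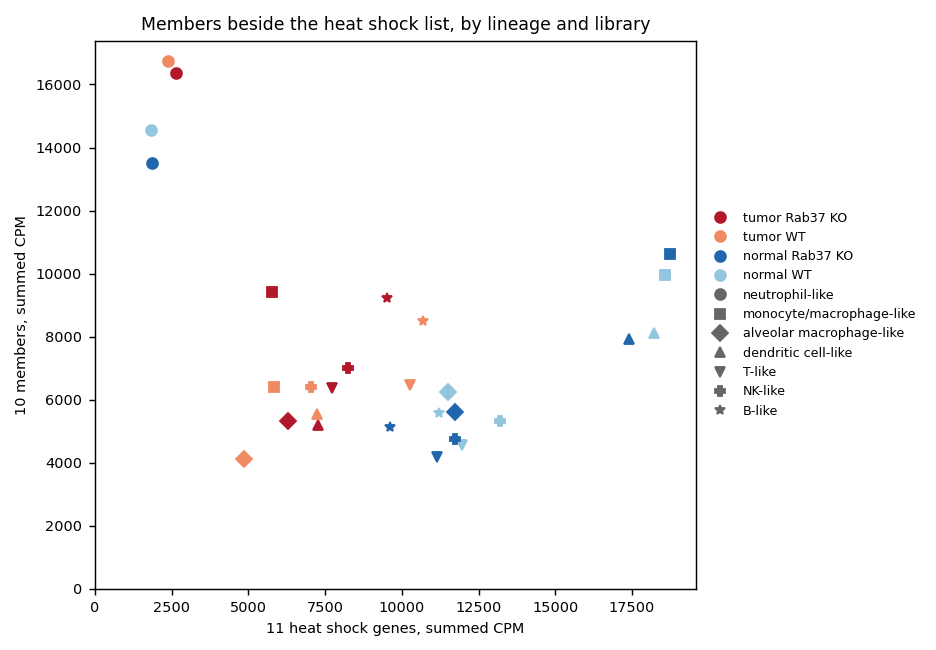
Each of 28 points is a lineage in a library, with the summed CPM of 11 heat shock genes (x axis) against the summed CPM of the 10 members (y axis). Neutrophil-like points lie at the upper left, with the lowest heat shock and the highest member levels, and normal monocyte/macrophage- and dendritic cell-like points lie at the right.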

How the data were processed

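Single-cell 3′ libraries of live CD45+ cells were made with 10x Genomics v2 reagents, per the labels' protocols. The deposited matrices held raw UMI counts per gene and barcode that the authors had not normalized. Per the submitters' processing notes the genome was mm10. The counting software was version 3.1.0 for tumor and 3.0.1 for normal libraries, per the file headers. The aligner and its use of strand are not given in the sources used here. Of 31053 gene identifiers, 30934 (99.6%) were in GENCODE vM21.

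Barcodes were kept from 200 detected genes up to a mitochondrial share of 10%. Scrublet (through scanpy 1.11.5) marked 4 (0.147%), 6 (0.927%), 97 (2.05%) and 209 (3.99%) cells in tumor Rab37 KO, tumor WT, normal Rab37 KO and normal WT as doublets, which were recorded and not removed. All libraries were clustered together (2000 variable genes, 30 components, 15 neighbours, leidenalg 0.10.2 at resolution 1), and clusters scoring for several classes were clustered again, giving 53. A cluster took the class with the highest marker score, if that reached 0.5 with at least 3 markers detected in 10% of cells. After clusters had been seen, 11 mixed clusters (512 cells) were left unnamed and classes with fewer detected markers were ranked last. UMIs were summed per lineage and library, and CPM, ratios and exact intervals were computed with Python 3.11.15, numpy 2.4.6, pandas 2.3.3 and scipy 1.17.1; code was tested on simulated data. With 1 library per group, no p-value was computed and intervals cover counting error only. Neutrophil RNA was the share of UMIs from Csf3r, Cxcr2, G0s2, Hdc, Il1r2, Mmp8, Mmp9, Retnlg, S100a8 and S100a9.

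Named genes were the 10 members, for each further list at most 3 genes that reached 50 CPM and moved most in ratio, and the 10 genes most like the members, of which 1 is not reported here. Members, lists and this rule were chosen with earlier results of these data known. Alternatives changed 1 choice at a time, and leaving out the top cell of each library was added after seeing the data.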

Additional observations from a re-analysis of the deposited data

Results flagged for a closer look

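Egr1 in monocyte/macrophage-like cells drew attention because tumor and normal lung differed in opposite directions in the genotypes. The ratio was 2.01 (1.91 to 2.12) for tumor Rab37 KO against normal Rab37 KO and 0.603 (0.552 to 0.659) for tumor WT against normal WT. With 1 library per group the difference between the ratios was not tested. Without cells of at least 1% neutrophil marker UMIs the Rab37 KO ratio was 1.11, and in cluster 12 it was 0.421 (0.338 to 0.521), below 1 as in WT.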

How the results depend on the processing

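No paired analysis was possible because each group holds 1 library. Of 96 recomputed counts of higher and lower pairs, 83 stayed within 1.5 times and 13 did not. At 2-fold in place of 1.5-fold, tumor Rab37 KO against tumor WT had 8 higher and 1 lower, normal Rab37 KO against normal WT had 0 higher and 1 lower, tumor WT against normal WT had 6 higher and 11 lower, and tumor Rab37 KO against normal Rab37 KO had 13 higher and 9 lower. With lineages from each cell's own markers, tumor Rab37 KO against tumor WT had 10 lower, and normal Rab37 KO against normal WT had 0 higher. Also in normal lung 6 pairs were lower after thinning and 10 in male cells, and 3 were higher in female cells; the cause was not tested. Among pairs called at 1.5-fold, the ratio turned to the other side of 1 in 7 cases. Ratios of pairs that were not called are not part of this count. With own markers, log2 ratios were -0.59 for T-like Egr1 and 0.24 for NK-like Egr1 in tumor Rab37 KO against tumor WT, and -0.33 for T-like Fos and -0.41 for T-like Atf3 in tumor Rab37 KO against normal Rab37 KO. After thinning they were -0.047 for alveolar macrophage-like Nr4a1 in tumor Rab37 KO against tumor WT, and 0.16 for alveolar macrophage-like Jund and 0.060 for dendritic cell-like Egr1 in tumor WT against normal WT. Thinned values rest on as few as 21 cells in tumor WT. Averaging each cell's CPM kept 17 of 21, 3 of 4, 24 of 32 and 36 of 36 called pairs in tumor Rab37 KO against tumor WT, normal Rab37 KO against normal WT, tumor WT against normal WT and tumor Rab37 KO against normal Rab37 KO. Leaving out marked doublets kept every called pair that has a log2 ratio. Only 4 cells of tumor Rab37 KO and 6 of tumor WT were marked, so this setting could hardly change tumor sums. Thinned ratios under 20 UMIs, and the log2 ratio of NK-like Atf3 in tumor WT, where no UMI was counted, could not be given. The tumor WT library, with 647 cells, was the smallest and had the fewest summed UMIs in every lineage.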
